A study of Mus musculus with 7 samples.

Results

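The machinery that switches the kinase Akt on and off was followed through 8 genes on expression arrays of mouse heart apex: the kinases Akt1 and Akt2, the activating kinase Pdpk1, the mTORC2 subunits Rictor, Mapkap1 and Mlst8, and the phosphatases Phlpp1 and Phlpp2. Their probes were found by matching the accession that the array files give for each probe to a gene symbol. All 8 genes were represented, by 16 of the 56605 non-control probes, and 15 of the 16 passed a filter that asked for signal well above background on 3 or more arrays, as did 30466 probes in all. The arrays came from 7 male C57Bl/6 mice, 1 array for each mouse. In the 3 mice of the AKT1+AKT2 double knockout (DKO), loxP sites flanked exons 6 and 7 of Akt1 and exons 5 and 6 of Akt2, and the mice were heterozygous for MHC-mercremer. That transgene encodes a tamoxifen-dependent Cre recombinase driven by the promoter of alpha myosin heavy chain, which is active in cardiomyocytes. The 4 control mice carried MHC-mercremer without floxed alleles. Mice of both groups were 3 months old, were given hydroxytamoxifen on 5 days at 500 µg a day, and had their hearts taken 10 days after induction. The labels call the hearts untreated, and their protocol records no treatment beyond the induction. The design text gives 3 double knockout hearts in one place and 4 hearts in another, and 3 DKO samples are analysed here. Recombination was directed at cardiomyocytes, whereas the RNA came from all cells of the apex, in which fewer cells of a type and less RNA per cell cannot be told apart.

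Akt kinases act downstream of insulin and growth factor receptors. PI3 kinase makes a membrane lipid that recruits Akt, where PDK1, the product of Pdpk1, phosphorylates its activation loop and mTOR complex 2 (mTORC2) its hydrophobic motif. The phosphatases PHLPP1 and PHLPP2 remove the phosphate from the hydrophobic motif, so the pathway acts on Akt protein and none of that phosphorylation is read by an expression array. In heart muscle Akt1 and Akt2 are the main forms, known for roles in growth, survival and glucose uptake.

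Values are log2 of the background-subtracted processed signal, scaled so that the 75th percentile of every array is the same, and differences are DKO minus control. A probe was called where its limma p, two-sided and adjusted by Benjamini-Hochberg over 30466 probes, was under 0.05. Different probes bind with different strength, so levels are compared between groups within a probe, and ratios of Akt2 probes within an array are likewise compared only between groups. Between 53.0% and 57.6% of non-control spots were well above background on an array, 0 were saturated, and all arrays shared 1 slide and 1 scan. The slide had 2 rows, with DKO replicate 3 and control replicates 1, 3 and 4 in row 1 and the other 3 arrays in row 2. The number of arrays limits the precision. Control replicate 1 stood apart, with r of 0.984 to 0.987 to the other controls, which correlated at 0.992 to 0.994 among themselves, and with 249 outlier-flagged spots against 78 to 153 on the other arrays. All 10 cardiomyocyte markers, among them Myh6, were detected and 0 were called. An unadjusted limma p below 0.05 was seen for 3 of them, beside 25.5% of all genes: Ryr2 (-0.38), Actc1 (-0.24) and Actn2 (0.23). The summed log2 signal, in which the brightest markers weigh most, was 21.07 to 21.21 in DKO hearts and 21.06 to 21.15 in control hearts.

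Of the 15 tested probes 4 were called, all lower in DKO hearts: the 3 probes of Akt2 and 1 of the 3 probes of Mapkap1. Over the whole array 4.4% of probes were called, 2.33% higher and 2.07% lower in DKO hearts. Akt1, Pdpk1, Rictor, Mlst8, Phlpp1 and Phlpp2 had 0 called probes by limma, with 3 further probes, 2 of Akt1 and 1 of Pdpk1, at an unadjusted p below 0.05. Over all genes, each by its brightest tested probe, 25.5% had an unadjusted p below 0.05. In 5 probes the DKO and control values did not overlap, namely those of Akt2, 1 of Akt1 and 1 of Mapkap1, and 25.2% of all tested probes did the same. Outside Akt2, 1 of 12 probes was called. The 10 probes of the 6 genes that were not targeted had a median difference of 0.08.

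**Figure D1:**
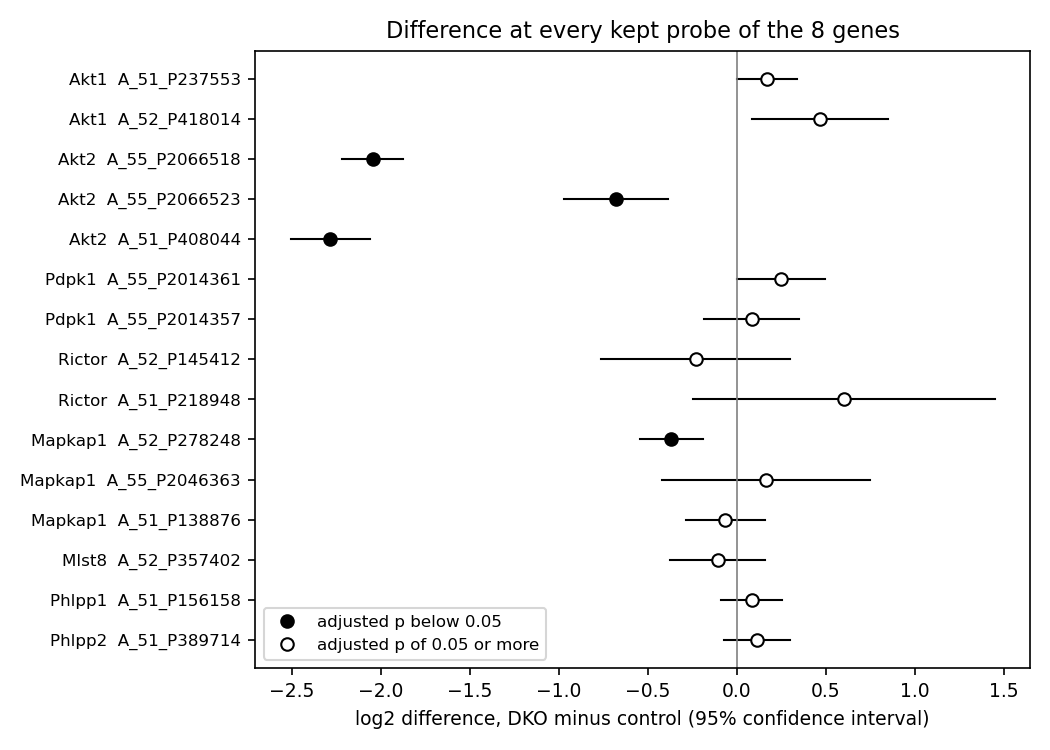
Difference in normalized log2 signal, DKO minus control (horizontal axis), for each of the 15 tested probes, with 95% confidence intervals from limma and filled points for probes with an adjusted p below 0.05. The probes A_55_P2066518 and A_51_P408044 of Akt2 lie near -2, while the Mapkap1 probe A_52_P278248, at -0.37, is the single filled point among the genes that were not targeted.

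Akt2, the isoform most closely tied to insulin-stimulated glucose uptake, was lower in every DKO heart than in any control heart by all of its 3 probes. Probe A_55_P2066518 read 11.64, 11.67 and 11.61 in DKO hearts and 13.78, 13.70, 13.61 and 13.65 in control hearts. The replicates of a group lay close together, and the signal in DKO hearts was 24.2% of that in control hearts (95% confidence interval 21.5% to 27.3%; limma, log2 difference -2.05 ± 0.07, SE, adjusted p = 0.000203). Probe A_51_P408044 read 7.90, 8.08 and 7.75 in DKO hearts and 10.20, 10.13, 10.21 and 10.25 in control hearts. This left 20.5% of the control signal (17.6% to 24.0%; limma, log2 difference -2.29 ± 0.10, SE, adjusted p = 0.000295). Probe A_55_P2066523 read 9.25, 9.46 and 9.05 in DKO hearts and 9.98, 10.04, 9.72 and 9.99 in control hearts. The gap between the groups was narrower here, and 62.4% of the control signal was left (50.9% to 76.5%; limma, log2 difference -0.68 ± 0.12, SE, adjusted p = 0.0335). The falls at A_55_P2066518 and A_51_P408044 were called in all 7 fits that left out 1 array, with an adjusted p of at most 0.00524. The fall at A_55_P2066523 was called in 1 of those 7 fits, the one without control replicate 3 (adjusted p = 0.0464), and its adjusted p reached 0.106 without DKO replicate 1. With slide row as a block it was 0.0504. Within slide rows 1 and 2 the difference was -2.07 and -2.05 at A_55_P2066518, -2.47 and -2.13 at A_51_P408044, and -0.85 and -0.69 at A_55_P2066523.

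The 3 Akt2 probes differed among themselves in how far DKO hearts lay below control hearts. The limma test of whether a gene's probes share 1 difference (diffSplice) gave an adjusted p of 3.32e-06 for Akt2, and 0.662% of the 5441 genes with more than 1 tested probe were called. Set against the mean of the gene's other probes, the difference at A_55_P2066523 was higher by 1.49 ± 0.12 (SE, limma, adjusted p = 1.30e-06). Those at A_51_P408044 and A_55_P2066518 were lower, with -0.92 ± 0.12 and -0.57 ± 0.12 (SE, limma, adjusted p = 0.00120 and 0.0380). Each probe enters the reference of the other 2, so the 3 values are not separate results. Set directly against A_51_P408044, the difference at A_55_P2066518 was higher by 0.24. Of 12229 probes tested against the other probes of their gene, 0.605% were called. The value for A_55_P2066518 was called in only 1 of 7 fits with an array left out, the one without DKO replicate 3, and its adjusted p reached 0.207 without DKO replicate 1. The other 2 probes passed in all 7. Within an array, the log2 ratio of A_55_P2066523 to A_51_P408044 was 1.30 to 1.38 in DKO hearts and -0.49 to -0.08 in control hearts. An exact two-sided permutation test of such ratios between the groups gave p = 0.0571 for each of the 3 pairs of probes (0.0571 after adjustment over the 3). That is the smallest value this form of the test can give with 3 against 4 arrays. The ratios of the groups did not overlap for any pair, so no other value was possible. Which exons the probes bind was not analysed here, so their place relative to the floxed exons is not known.

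Akt1, the isoform most closely tied to growth and survival, was not lower in DKO hearts by either probe. The brighter probe, A_51_P237553, read 14.68, 14.60 and 14.66 in DKO hearts and 14.46, 14.51, 14.40 and 14.55 in control hearts. All 3 DKO values lay above all 4 control values, by a difference of 0.17 ± 0.07 (SE, limma, adjusted p = 0.199). The 95% confidence interval of the DKO signal ran from 100.1% to 126% of the control signal. Under quantile normalization the difference was 0.04. Probe A_52_P418014 read 8.90, 8.84 and 8.46 in DKO hearts and 8.57, 8.14, 8.04 and 8.33 in control hearts. Here DKO replicate 3 lay below control replicate 1, and the difference was 0.47 ± 0.16 (SE, limma, adjusted p = 0.139), with 0.15 in slide row 1 and 0.73 in slide row 2. The signal was 138% of the control signal (106% to 180%). Leaving out any 1 of the 7 arrays gave no call for either probe, and the probes did not differ from each other beyond their error (0.30 ± 0.18, SE, limma diffSplice, adjusted p = 0.785). In the main fit both intervals, not adjusted for the number of probes, lie above the level of the control hearts. Under other settings the difference at A_51_P237553 was as low as 0.02, with an adjusted p of up to 0.910 (limma). A loss of Akt1 transcript was not seen with these probes. A probe outside the deleted exons does not check the deletion, and the place of these probes was not analysed here. RNA of cells other than cardiomyocytes enters both.

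**Figure D2:**
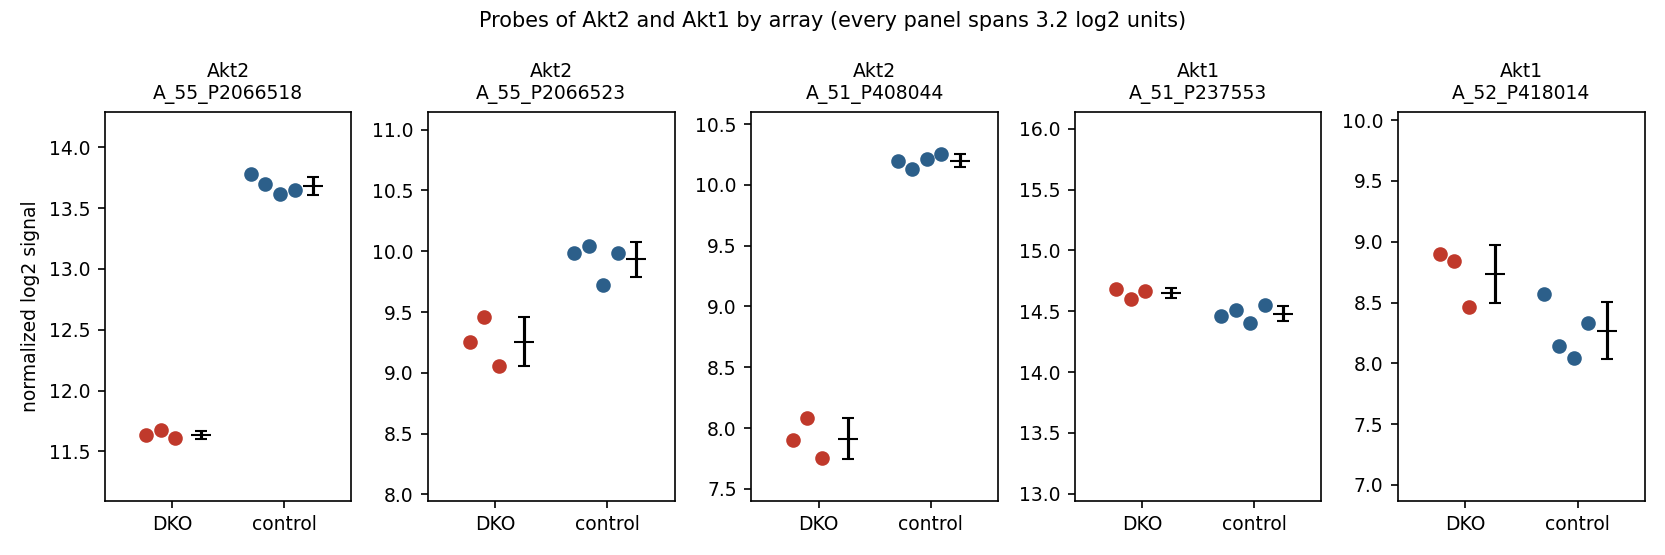
Normalized log2 signal (vertical axis) of the 3 Akt2 probes and the 2 Akt1 probes in each DKO array (left) and each control array (right), with the mean and SD beside the points. Panels start at different levels and span the same range, and the 3 Akt2 probes separate the groups by -2.05, -0.68 and -2.29 (DKO minus control) while the Akt1 probes give 0.17 and 0.47.

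Pdpk1 encodes PDK1, which phosphorylates the activation loop of Akt and of related kinases. Its probe A_55_P2014361 read 11.66, 11.59 and 11.28 in DKO hearts and 11.30, 11.26, 11.20 and 11.29 in control hearts. DKO replicates 1 and 2 lay above all controls and DKO replicate 3 among them. The difference of 0.25 ± 0.11 was not called (SE, limma, adjusted p = 0.200), and it was 0.02 in slide row 1, which holds DKO replicate 3, and 0.36 in slide row 2. Probe A_55_P2014357 read 10.27, 10.09 and 10.06 in DKO hearts and 10.13, 10.26, 9.95 and 9.89 in control hearts. The groups overlapped and the DKO signal was 106% of the control signal, with an interval of 88.1% to 127% (limma, log2 difference 0.08 ± 0.11, SE, adjusted p = 0.685).

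Mapkap1 encodes SIN1, the mTORC2 subunit that brings Akt to the complex. Its 3 probes gave different pictures. Probe A_52_P278248 read 9.57, 9.64 and 9.58 in DKO hearts and 9.94, 10.08, 9.89 and 9.93 in control hearts. All DKO values lay below all control values, and the signal fell to 77.5% of the control signal (68.4% to 87.7%; limma, log2 difference -0.37 ± 0.08, SE, adjusted p = 0.0454). This call was lost whichever of the 7 arrays was left out, where the adjusted p was 0.0681 to 0.136 and the difference -0.39 to -0.33. It was also lost with slide row as a block (adjusted p = 0.0762), although the difference was -0.35 in slide row 1 and -0.48 in slide row 2. Probe A_51_P138876 read 9.48, 9.64 and 9.36 in DKO hearts and 9.53, 9.69, 9.50 and 9.52 in control hearts. These groups overlapped, with a difference of -0.06 ± 0.09 (SE, limma, adjusted p = 0.708). Probe A_55_P2046363 read 9.80, 9.83 and 9.63 in DKO hearts and 8.89, 9.99, 9.77 and 9.70 in control hearts. Control replicate 1 was far below the other 3 controls here, and the difference was 0.16 ± 0.25 with it and -0.07 without it (SE, limma, adjusted p = 0.722 in both). The residual spread of this probe was larger than that of 96.2% of tested probes of like brightness (mean log2 signal within 0.5). The diffSplice test did not call a difference among the 3 probes (limma, adjusted p = 0.751). With the mean of the 3 probes as the value of the gene, the difference was -0.09 (limma, adjusted p = 0.666).

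Rictor encodes the scaffold that defines mTORC2, and it was the single member with a probe that did not pass the filter. Probe A_52_P145412 read 7.60, 6.89 and 7.65 in DKO hearts and 7.998, 7.41, 7.57 and 7.46 in control hearts. The groups overlapped, and the DKO signal was 85.2% of the control signal with an interval of 59.0% to 123% (limma, log2 difference -0.23 ± 0.23, SE, adjusted p = 0.558). DKO replicate 2 was the lowest array, and without it the difference was 0.01. Probe A_51_P218948 was well above background on all 3 DKO arrays and on 1 control array, that of replicate 1. It passed the filter only with the DKO arrays, which bears on its difference. It read 5.31, 5.16 and 5.33 in DKO hearts and 5.72, 4.28, 4.47 and 4.19 in control hearts. Control replicate 1 was the highest of all 7 values, and the difference was 0.60 ± 0.36 (SE, limma, adjusted p = 0.343). Without that array 0 controls were well above background and the filter was passed through the DKO arrays alone. No fold is therefore given for the fit without it. The adjusted p of 0.0199 from that fit (limma) is not counted here as a call. With all arrays and normexp background correction the difference was at most 0.14. Probe A_52_P550602 was not well above background on any of the 7 arrays, and no fold is given for it.

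Mlst8, a subunit shared by both mTOR complexes, read 10.05, 9.89 and 10.02 in DKO hearts and 10.35, 9.94, 10.00 and 10.11 in control hearts on probe A_52_P357402. The groups overlapped and control replicate 1 was the highest array. The DKO signal was 92.7% of the control signal, with an interval of 77.0% to 112% (limma, log2 difference -0.11 ± 0.11, SE, adjusted p = 0.589), and the difference was -0.02 without control replicate 1.

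**Figure D3:**
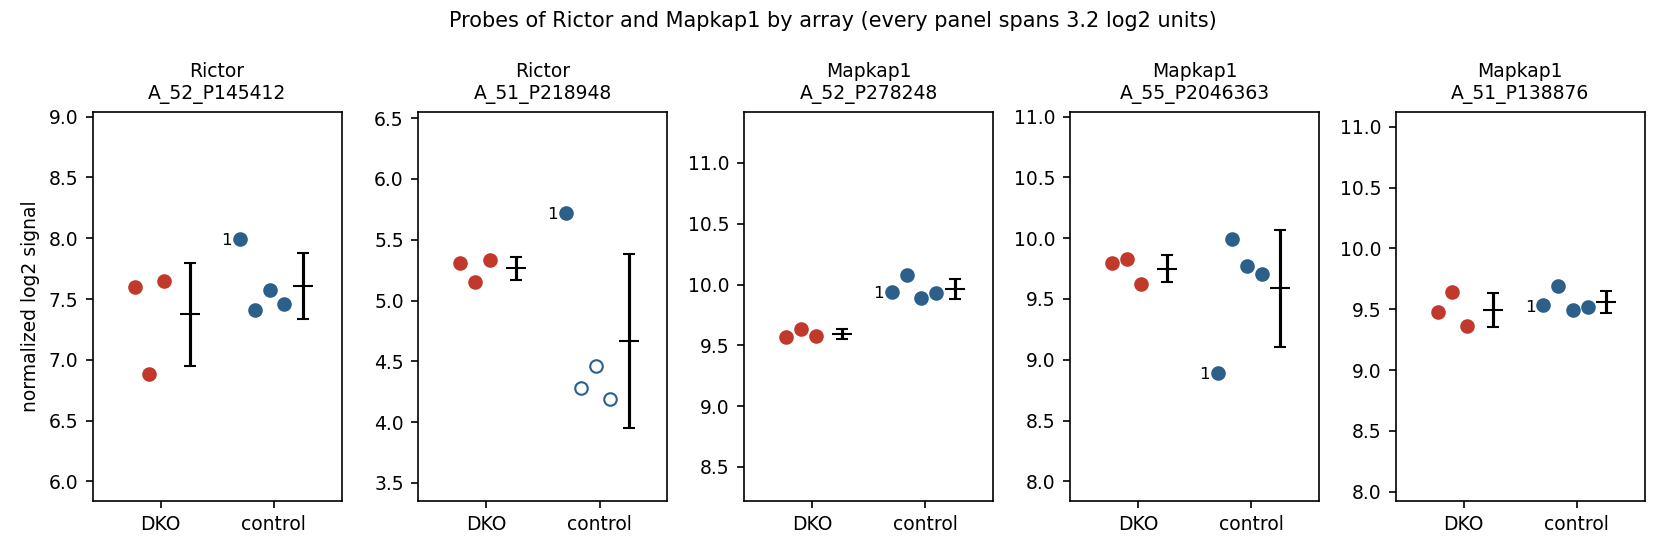
Normalized log2 signal (vertical axis) of the Rictor and Mapkap1 probes in each DKO array (left) and each control array (right), with hollow points for values not well above background and the numeral 1 beside control replicate 1. That array is the highest control on the Rictor probe A_51_P218948, at 5.72, and the lowest on the Mapkap1 probe A_55_P2046363, at 8.89.

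The phosphatases Phlpp1 and Phlpp2 had close replicates. Among tested probes of like brightness (mean log2 signal within 0.5), the residual spread of the Phlpp1 probe A_51_P156158 was larger than that of 3.28%, and that of the Phlpp2 probe A_51_P389714 larger than that of 7.92%. Phlpp1 read 8.55, 8.68 and 8.67 in DKO hearts and 8.50, 8.62, 8.54 and 8.54 in control hearts. The groups overlapped, and the DKO signal was 106% of the control signal with an interval of 94.0% to 119% (limma, log2 difference 0.08 ± 0.07, SE, adjusted p = 0.521). Phlpp2 read 8.30, 8.33 and 8.42 in DKO hearts and 8.36, 8.17, 8.24 and 8.18 in control hearts. Control replicate 1 lay among the DKO values. The DKO signal was 108% of the control signal, with an interval of 95.1% to 123% (limma, log2 difference 0.11 ± 0.08, SE, adjusted p = 0.412).

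Other genes around Akt were counted in 5 lists, each gene by its brightest tested probe. Over all 23678 genes 4.7% were called, 2.41% higher and 2.29% lower in DKO hearts, 25.5% had an unadjusted p below 0.05, and the median difference was -0.02. The lists are described by their counts and medians only. Of the 6 other subunits and assembly factors of mTORC2, 0 were called by limma and 0 had an unadjusted p below 0.05, with a median of -0.07. The kinase subunit Mtor differed by 0.03 ± 0.13, the inhibitory subunit Deptor by -0.15 ± 0.08 and Prr5 by -0.11 ± 0.08 (SE, limma, adjusted p = 0.897, 0.306 and 0.462). Of 15 measured genes in a list of lipid phosphatases, Tribbles proteins, chaperones and other genes around Akt, 0 were called by limma and 3 had an unadjusted p below 0.05 (median 0.09). Inppl1, which encodes the lipid phosphatase SHIP2, differed by -0.33 ± 0.08 and Inpp4b by 0.29 ± 0.10 (SE, limma, adjusted p = 0.0596 and 0.135). Inppl1 was called lower under 4 other settings, among them quantile normalization, but not with no filter or the replicate block (adjusted p = 0.236 and 0.186 by limma), and in 0 of 7 fits with an array left out (up to 0.163 without DKO replicate 1).

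Protein phosphatase 2A dephosphorylates the activation loop of Akt. Of 12 measured subunits of 15 listed, 0 were called by limma and 0 had an unadjusted p below 0.05, and 6 were higher in DKO hearts. The catalytic subunit Ppp2cb differed by 0.17 ± 0.07 and the scaffold subunit Ppp2r1a by -0.16 ± 0.08 (SE, limma, adjusted p = 0.202 and 0.296). Of 16 measured kinases of the AGC family that PDK1 or mTORC2 also phosphorylate, 0 were called by limma and 4 had an unadjusted p below 0.05 (median -0.01, with 8 higher). The atypical protein kinase C gene Prkcz differed by 0.51 ± 0.13 (SE, limma, adjusted p = 0.0719).

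Among 24 genes whose products Akt phosphorylates, 3 rose in DKO hearts and 0 fell, and the median was 0.12. In all 17 were higher, beside 11115 of 23678 over all genes, and 10 had an unadjusted p below 0.05 (limma). Of these 10, Foxo6, Wnk1 and Ppargc1a were lower (-0.40, -0.27 and -0.21) and the rest higher. The list names targets of the kinase protein, and the array measures their transcripts. The insulin receptor adaptor Irs1, the cell cycle inhibitor Cdkn1b (p27) and Akt1s1 (PRAS40, an inhibitory partner of mTORC1) rose. Irs1 averaged 12.72 ± 0.16 in DKO hearts (SD, n = 3) and 11.63 ± 0.13 in control hearts (SD, n = 4), and kept its call whichever of the 7 arrays was left out. Akt1s1 averaged 11.64 ± 0.05 in DKO hearts and 11.28 ± 0.04 in control hearts, a difference of 0.36 ± 0.07 (SE, limma, adjusted p = 0.0349). It passed in 1 of the 7 fits, with an adjusted p of up to 0.115 without DKO replicate 1. Cdkn1b averaged 11.60 ± 0.07 in DKO hearts and 11.16 ± 0.09 in control hearts, a difference of 0.43 ± 0.08 (SE, limma, adjusted p = 0.0343). It passed in 0 of the 7 fits, with an adjusted p of up to 0.107 without DKO replicate 3.

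**Figure D4:**
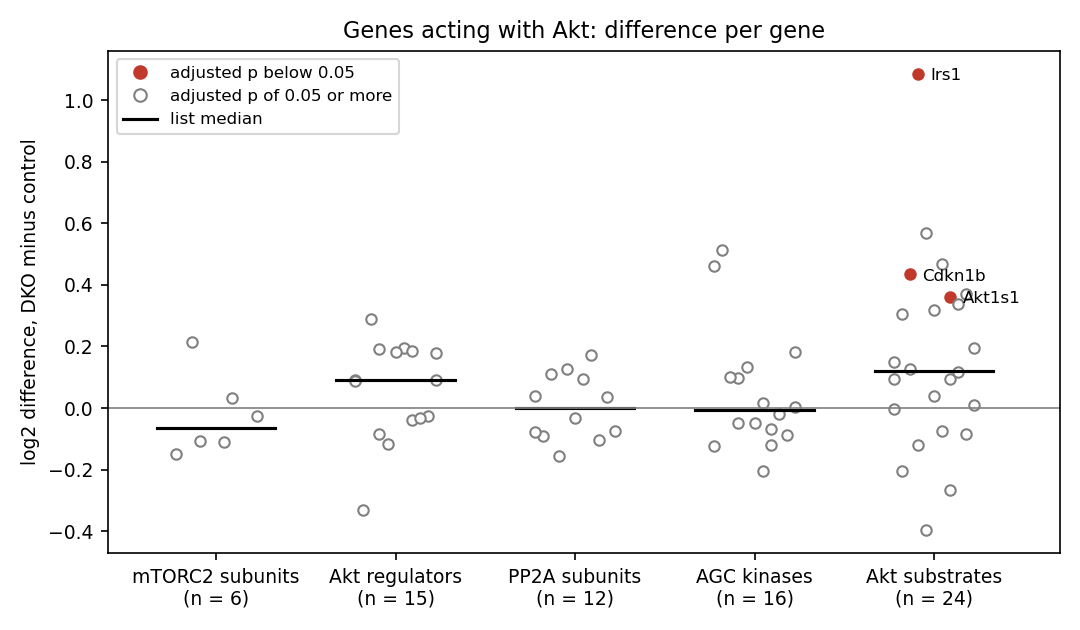
Difference in normalized log2 signal, DKO minus control, for the measured genes of 5 lists around Akt, with filled points for genes with an adjusted p below 0.05 and a bar at the median of each list. The called genes Irs1, Cdkn1b and Akt1s1 are in the list of Akt substrates, whose median is 0.12.

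The cells that were not targeted also contribute to each value. All 7 endothelial markers were measured and higher in DKO hearts, 0 of them called, with a median of 0.20 and a summed log2 signal of 15.09 to 15.22 in DKO hearts and 14.77 to 15.03 in control hearts. Of 7 fibroblast markers 6 were higher, 0 called, at 16.68 to 16.91 in DKO hearts and 16.61 to 16.71 in control hearts. Of 6 mural markers 4 were higher, with a median of 0.29, and Myh11 alone was called (0.63). Acta2, the brightest of them, differed by -0.41 ± 0.14 (SE, limma, adjusted p = 0.128). The summed signal was 15.73 to 15.96 in DKO hearts and 15.80 to 16.09 in control hearts. Of 7 macrophage and leukocyte markers 0 were called, at 13.72 to 14.15 in DKO hearts and 13.79 to 13.94 in control hearts. The part of these markers in the Akt1 and Akt2 values was not tested.

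The chromosomal neighbourhood of the targeted genes was read from the gene order of the RefSeq annotation of GRCm38.p6. Akt2 lies on chromosome 7 and Akt1 on chromosome 12. Of the 20 tested named genes around Akt2, 10 on either side, 3 were called and 8 had an unadjusted p below 0.05, beside shares of 4.7% and 25.5% over all genes. Both counts, and the wider count below, include Zfp974, which passed the filter only through the control arrays. Leaving it aside, Map3k10 and Blvrb were called. Map3k10, a kinase of the JNK pathway, is the next tested gene on one side of Akt2. It read 9.19, 9.17 and 9.26 in DKO hearts and 9.58, 9.80, 9.61 and 9.72 in control hearts. The groups did not overlap and the difference was -0.47 ± 0.08 (SE, limma, adjusted p = 0.0297), called in 2 of 7 fits with an array left out and with an adjusted p of up to 0.1001 without DKO replicate 1. Blvrb, biliverdin reductase B, the seventh tested gene on the other side, read 11.34, 11.26 and 11.29 in DKO hearts and 10.20, 10.33, 10.37 and 10.36 in control hearts. It rose by 0.98 ± 0.07 (SE, limma, adjusted p = 0.0040) and passed in all 7 fits. Zfp974, the seventh on the side of Map3k10, was well above background on all 4 control arrays and on 2 of 3 DKO arrays, not on that of DKO replicate 3. The control arrays alone took it past the filter, and the size of its difference, -1.37 ± 0.20, is therefore uncertain (SE, limma, adjusted p = 0.0180). It passed in 4 of the 7 fits, with an adjusted p of up to 0.0636 without DKO replicate 2, and was not among the probes above background on all 7 arrays. With no filter on dim probes it was not called (limma, adjusted p = 0.0721). The neighbour on the other side of Akt2, 2310022A10Rik, differed by 0.13 ± 0.09 (SE, limma, adjusted p = 0.423). Of the 20 tested genes around Akt1, 0 were called by limma and 1 had an unadjusted p below 0.05. Its neighbours Siva1 and Zbtb42 differed by -0.05 ± 0.09 and 0.02 ± 0.13 (SE, limma, adjusted p = 0.786 and 0.936). With 20 genes on either side, 2 of 40 were called around Akt1, where Crip1 rose by 0.53 and Zfp386 fell by 1.19, and 4 of 40 around Akt2, where Coq8b also rose by 0.41. Of these, Zfp386 passed whichever array was left out. Crip1 passed in 1 of the 7 fits (adjusted p up to 0.1003 by limma, without DKO replicate 2) and was not called under quantile normalization (0.0673). Coq8b passed in 0 of the 7 (up to 0.126, without DKO replicate 2). The DKO mice alone carried floxed alleles, so the alleles around the targeted genes and the loss of Akt cannot be told apart.

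**Figure D5:**
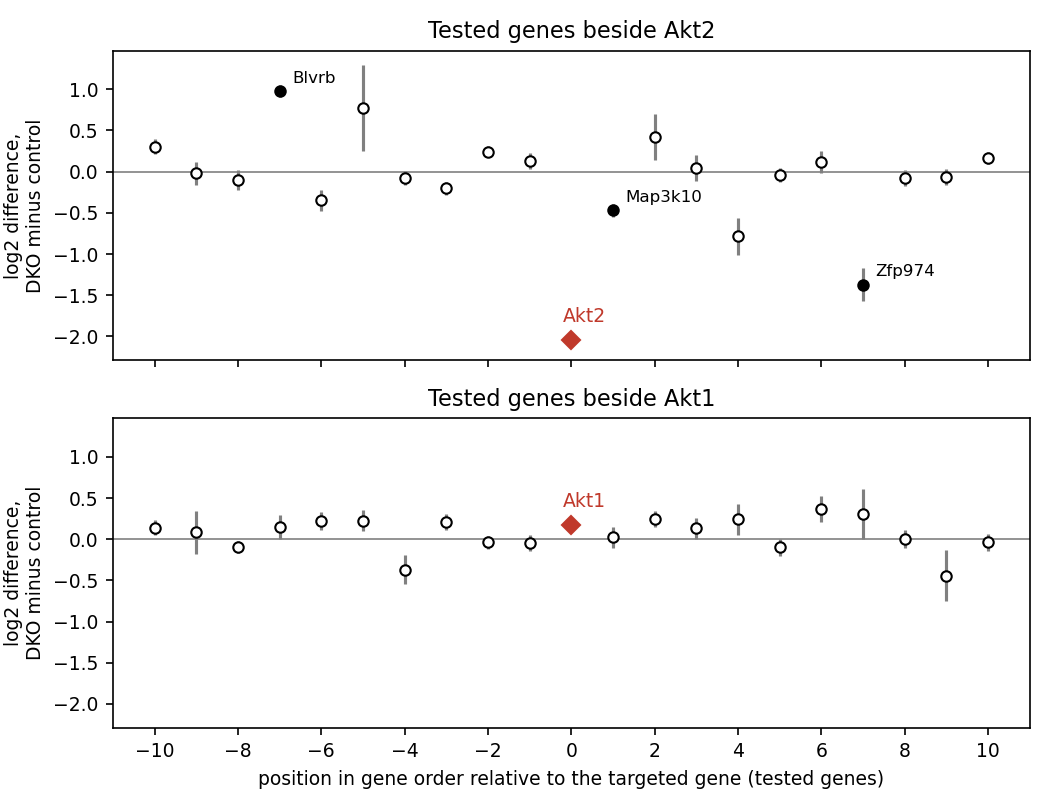
Difference in normalized log2 signal, DKO minus control, with SE bars, for Akt2 and Akt1 and the 10 tested genes on either side of each, in chromosomal order. Red diamonds mark the targeted genes and filled black points other genes with an adjusted p below 0.05: Blvrb, Map3k10 and Zfp974 beside Akt2, and 0 genes beside Akt1. Zfp974 passed the filter only through the control arrays.

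The genes whose signal followed each member most closely over the 7 arrays were found among 14717 named genes by Pearson r, as a description of 7 arrays in 2 groups. A gene that separates the groups tends to have a high r to others that separate them in the same direction. Akt1 and Akt2, which differ in direction, had an r of -0.87. Only positive r was ranked and counted. The genes closest to Akt2 were Fam78a, Cs and Zfp386, with r of 0.9987, 0.996 and 0.995, and 191 genes had an r of at least 0.95. Cs encodes citrate synthase of the mitochondrial citric acid cycle, and its difference of -0.18 was not called (limma, adjusted p = 0.126). Mapkap1 was closest to Vwa8, Acaa2 and Eny2 (r of 0.996, 0.994 and 0.994), and 125 genes reached 0.95. Akt1 was closest to Ciao1, Zfp791 and Klhl21 (0.982, 0.979 and 0.979), with 49 genes. Genes close to Pdpk1 included Alpk3 and Srpx (0.983 and 0.972), with 24 genes. Mlst8 was closest to Dsp, Zgrf1 and 1700029I15Rik (0.977, 0.975 and 0.966), with 13 genes. Phlpp2 was closest to Casc3, Mks1 and Wnk4 (0.984, 0.980 and 0.977), with 11 genes. Phlpp1 was closest to Tmem167, Pla2g7 and Ddx58 (0.977, 0.972 and 0.966), with 9 genes. Rictor was closest to A730056A06Rik, Ltbr and Nr1i3 (0.969, 0.965 and 0.961), with 6 genes. The 3 members whose groups did not overlap by their brightest probe, Akt2, Mapkap1 and Akt1, had the most such genes.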

How the data were processed

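Total RNA of heart apex was labelled with Cy3 and hybridised to single-colour Agilent arrays of design 074809, per the labels' protocols and the file headers. The authors read the scans in Feature Extraction 12.0.3.1 (protocol GE1_1200_Jun14, build mm9), per the file headers. Intensities of 62976 spots on a linear scale, background-subtracted in the processed signal, were deposited for each array. A value table deposited by the authors gives 56745 probes as log2 values, which matched quantile-normalized, probe-median-centred scanner values (r from 0.9992 to 0.9996 across probes; median 0 in each column). Its direction is not in question, since each column is 1 array; it was made with software not given in the sources used here.

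Control spots and outlier-flagged spots were left out, log2 of the processed intensity was taken, each array's 75th percentile was subtracted and the mean percentile (9.14) was added back. Spots of a probe were averaged. Accessions were matched to symbols through a RefSeq table of GRCm38.p6, which named 32989 of 56605 probes. Probes well above background on at least 3 arrays entered a 2-group limma fit (version 3.58.1, R 4.3.3; lmFit and eBayes with no covariate), which had 5 residual and 2.19 prior degrees of freedom. Tests were two-sided and adjusted by Benjamini-Hochberg, with a threshold of 0.05. diffSplice compared probes of a gene. Lists and neighbours used a fit over 23678 genes, each by its brightest kept probe. The fit was tested on simulated data.

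The members, lists and tests were chosen with earlier results of these data known. Genes were named by rule: all members, called list genes and the 2 with the smallest p in each list, the nearest and called neighbours, and the 3 closest genes by r. Mtor, Wnk1, Foxo1, Foxo6, Ppargc1a, Crip1, Coq8b and the markers Acta2, Ryr2, Actc1 and Actn2 were named outside it, after their values were seen. Some genes that the rule covers are not reported here. Per the labels every array is a different mouse. Arrays of 1 group correlated at 0.984 to 0.994, and arrays of different groups at 0.977 to 0.989, both low ends being those of control replicate 1.

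Alternatives covered normalization, normexp background correction (offset 50, on the median spot signal), the filter, the authors' values, variance trends, array weights, the mean of a gene's probes, blocks for replicate number and slide row, and each array left out. The exact permutation test of Akt2 probe pairs was added after seeing the data.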

Additional observations from a re-analysis of the deposited data

How the results depend on the processing

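Of the 4 member probes called, 2 were called with no filter on dim probes, 2 with slide row as a block and 2 to 3 with an array left out. The probes A_55_P2066518 and A_51_P408044 of Akt2 kept their call under every alternative run except the replicate block. Deviations of same-numbered arrays of the groups had r of 0.12, -0.0049 and 0.04 for replicates 1, 2 and 3. Differently numbered arrays gave -0.17 to 0.17. With so few arrays these values cannot decide whether the numbers pair mice. With the replicate number as a block, which leaves out control replicate 4, 0 member probes were called (adjusted p = 0.0954 and 0.104 by limma for those 2 probes), and 0 substrates rose. Of Akt substrates, 3 of which rose, 1 did so with no filter and 1 to 2 with an array left out. Foxo1 also rose with a gene's probes averaged (0.39, limma, adjusted p = 0.0268). It was not called in the main fit (limma, adjusted p = 0.0916) or in any fit with an array left out. A fall was called for 1 substrate (Wnk1) with the authors' values or quantile normalization. Of the other regulators of Akt, 1 fell (Inppl1) with the authors' values, quantile normalization, probes above background on all 7 arrays or a gene's probes averaged. Of the AGC kinases 1 rose with probes above background on all 7 arrays. Beside Akt2, 3 genes were called, Zfp974 among them, against 1 with 5 genes on either side and 1 to 4 with an array left out. Beside Akt1, 2 were called with 20 genes on either side. The Akt2 probes called by diffSplice numbered 3, and 2 to 3 with an array left out.

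Differences that changed sign were all of probes that were not called. The Pdpk1 probe A_55_P2014357 gave -0.00015 with slide row as a block. For Rictor, the mean of the gene's probes gave 0.18 in place of the value of A_52_P145412. That mean takes in A_51_P218948, which passed the filter only with the DKO arrays, so its sign is not read as a result. With an array left out, the difference was -0.37 to 0.013 at A_52_P145412, -0.14 to 0.0023 at the Mapkap1 probe A_51_P138876 and -0.071 to 0.30 at the Mapkap1 probe A_55_P2046363. Against the gene's other probes, A_51_P138876 gave -0.0047 to 0.15. Over the whole array 1339 probes were called, against 139 with no filter, 678 with normexp, 321 with slide row as a block, 2 with the replicate block, 2480 with a variance trend and 218 to 1098 with an array left out.

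The 7 arrays, dim Rictor probes and unknown probe positions limit what can be read. Control replicate 1 lay far from the other controls at the Rictor probe A_51_P218948 and the Mapkap1 probe A_55_P2046363, and moved both differences.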
